A study of Homo sapiens with 6 samples.

Results

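NB4 is a human acute promyelocytic leukemia cell line. Gene expression was examined here for 39 genes of homologous recombination, the Fanconi anemia pathway and the checkpoint that accompanies them. They were chosen by gene symbol from the 18625 genes listed for NB4 cells, and all 39 were found. The cells had received either DMSO, the solvent, or 10 μM Tan I (Tanshinone I, a lipid-soluble compound of Salvia miltiorrhiza), each for 3 days, and each group held 3 RNA-seq libraries. One cell line was used, and the labels do not say whether the replicates came from separate cultures, so the p-values measure only the spread between these libraries.

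Homologous recombination mends broken chromosomes by copying an intact sister chromatid. Broken ends are sensed and resected to single-stranded DNA, mediators such as BRCA2 prepare that DNA for strand exchange, and helicases and nucleases resolve the joined molecules. The Fanconi pathway removes crosslinks between DNA strands: a core complex attaches ubiquitin to FANCI and FANCD2, which then recruit nucleases. The kinases ATM and ATR signal the damage to CHEK2 and CHEK1 and delay the cell cycle. Dividing leukemia cells meet such lesions mainly while copying their DNA.

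Compared to DMSO, no repair gene was called in Tan I-treated NB4 cells. The values are normalized counts, that is, reads per gene divided by one factor per library, and the test was limma on log2(normalized count + 1) over 16887 genes, those whose mean reached 10. Calls required a p-value of at most 0.05 together with a log2 fold change of 0.25 or more in either direction. Without adjustment for multiple testing, 0 of the 39 genes passed, against 2.42% of all genes tested (1.32% higher and 1.10% lower in Tan I). With Benjamini-Hochberg adjustment 0 of 39 passed, against 0.00% of all genes, and the lowest adjusted p of a repair gene was 0.999. The count at an unadjusted p of at most 0.05 with no fold threshold was also 0, and edgeR and DESeq2 on the reads recovered from the table called 0 without adjustment (2.42% and 2.49% of all genes) and 0 with it (0.00% and 0.120%).

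The intervals of the differences excluded large changes for most of these genes, but not changes of the size used for calls. The 95% interval of the log2 fold change covered 0 for all 39 genes and lay within 1 either way for 37 of them (94.9%, against 73.1% of all genes tested). For 27 genes it lay within a 1.5-fold change either way. The exceptions to the first limit were XRCC2 and RAD50. The shares were not matched for level: the 39 genes had a median mean of 1117 normalized counts, and all genes tested began at 10. In 33 of the 39 genes the 3 DMSO libraries alone spanned a wider log2 range than the difference between the groups. A range over single libraries tends to exceed a difference of means where groups differ little, and the share over all genes is not given. The median log2 fold change was -0.02, where the median of all genes was -0.00. The mean of Tan I was higher for 15 genes (38.5%, against 49.7% of all genes tested) and lower for 24. This split depended on the scaling: 11 genes were higher after quantile normalization, 7 when each library was rescaled to the same total and 20 after a correction for transcript length and GC content.

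**Figure D1:**
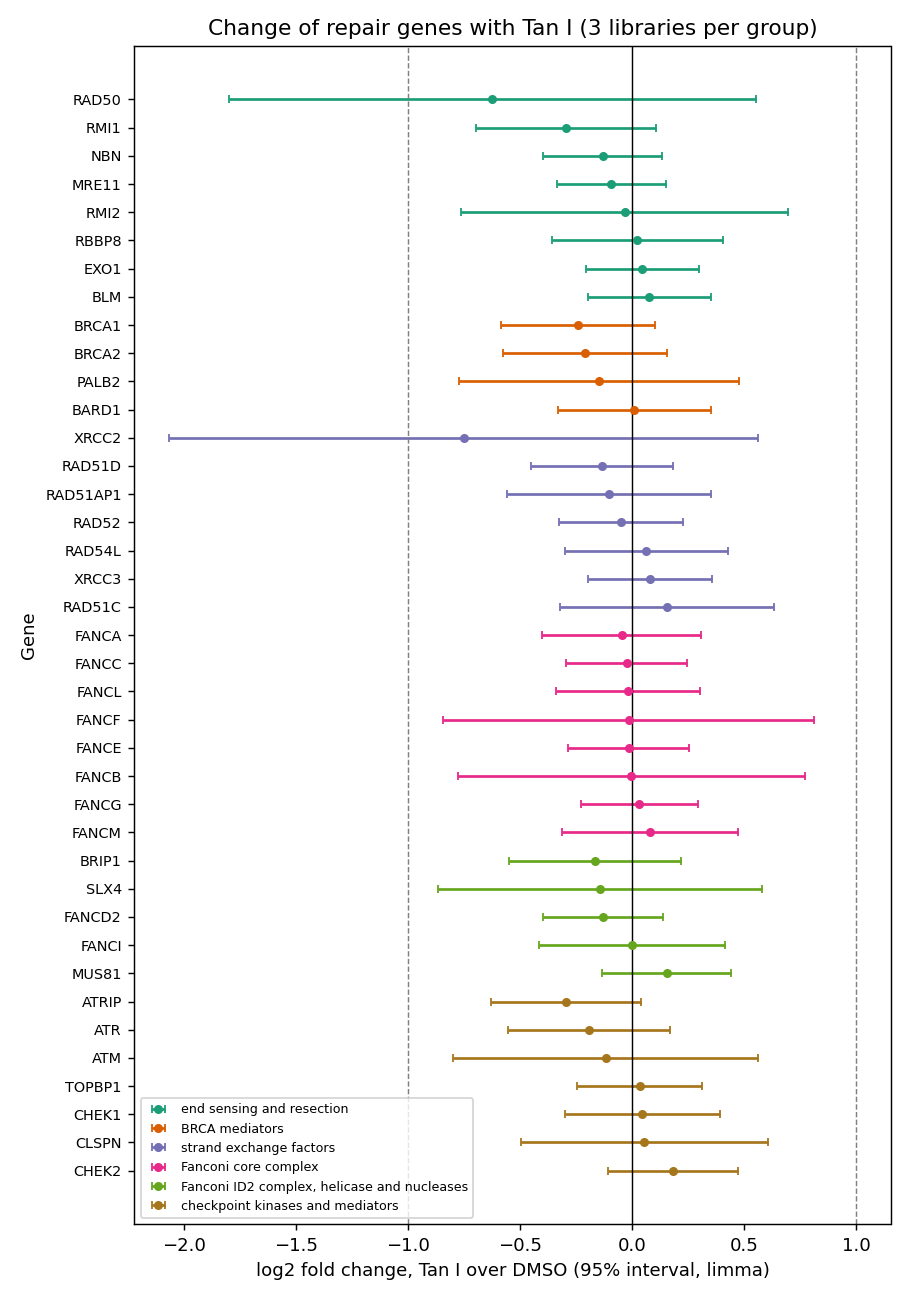
Log2 fold change (Tan I relative to DMSO) for each of the 39 repair genes (horizontal axis), as points coloured by role, with bars for the 95% interval from limma with 3 libraries per group. All 39 bars cross 0, and the widest belong to XRCC2 and RAD50.

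Only ATRIP had groups that did not overlap, which is 1 of 39 genes (2.56%) against 7.89% of all genes tested (3.92% higher and 3.97% lower in Tan I). ATRIP is the partner protein that brings the kinase ATR to single-stranded DNA. It had 235.9, 273.5 and 241.4 normalized counts in the DMSO libraries (replicates 1, 2 and 3, the order used throughout) and 212.1, 191.8 and 208.0 in the Tan I libraries. Each Tan I library lay below each DMSO library, with the nearest values in DMSO replicate 1 and Tan I replicate 1. Its DMSO mean of 250 ± 20.3 compared with 204 ± 10.7 after Tan I (SD over 3 libraries each), a log2 fold change of -0.29 (SE 0.14, 95% interval -0.63 to 0.04). The unadjusted p from limma was 0.0782, and the exact two-sided permutation test gave p = 0.1, below which a comparison of this size cannot go. In RNA from a whole culture, fewer cells that express a gene and less of its RNA per cell cannot be told apart. In the annotation used here, 26.7% of the exon bases of ATRIP are also exon of TREX1 on the same strand. The count of ATRIP is therefore uncertain, and the share of its reads concerned is not known. After rescaling to equal totals, RMI1 and ATRIP were called lower without adjustment (background 2.59%), and with the first principal component added to the model RMI1, XRCC2 and ATRIP were (background 8.86%).

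The number of genes with separate groups moved with single libraries. It was 13 (background 26.5%) without Tan I replicate 1, 5 without DMSO replicate 2 (21.9%), 5 without DMSO replicate 3 (12.3%), 2 without Tan I replicate 2 (11.0%) and 2 without Tan I replicate 3 (15.4%). Without DMSO replicate 1 it was 1 (11.4%). Without Tan I replicate 1, limma also called 4 repair genes without adjustment (RAD50, BRCA1, BRCA2 and XRCC2, all lower), while the share of all genes called was 8.86%.

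The sequences before the transcription start are shown for 3 genes that the following results return to: ATRIP, the only gene with separate groups, and RAD51C and ATM, which stood high and low in the same libraries. Each is the 250 bases upstream of the start that RefSeq gives (GRCh38.p14), at chr3:48446487-48446736 for ATRIP, chr17:58692352-58692601 for RAD51C and chr11:108222817-108223066 for ATM, all on the + strand and written 5′ to 3′. They reach 27, 29 and 23 bases into the span of the annotated gene. Capitals mark matches, on either strand, to CCAAT or to TTTGAA.
ATRIP: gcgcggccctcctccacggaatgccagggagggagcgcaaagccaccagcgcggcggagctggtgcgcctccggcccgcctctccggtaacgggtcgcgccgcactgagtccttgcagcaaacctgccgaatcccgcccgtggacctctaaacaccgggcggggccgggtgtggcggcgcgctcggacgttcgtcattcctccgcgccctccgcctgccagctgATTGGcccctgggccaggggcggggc
RAD51C: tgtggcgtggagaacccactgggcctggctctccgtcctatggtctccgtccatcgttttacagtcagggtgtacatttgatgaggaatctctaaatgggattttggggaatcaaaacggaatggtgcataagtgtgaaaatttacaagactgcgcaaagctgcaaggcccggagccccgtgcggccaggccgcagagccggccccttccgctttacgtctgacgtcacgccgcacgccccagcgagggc
ATM: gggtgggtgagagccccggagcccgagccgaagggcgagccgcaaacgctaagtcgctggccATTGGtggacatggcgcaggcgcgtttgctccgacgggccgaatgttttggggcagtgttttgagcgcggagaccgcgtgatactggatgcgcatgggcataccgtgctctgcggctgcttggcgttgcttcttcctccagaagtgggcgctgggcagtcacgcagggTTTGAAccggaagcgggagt
ATRIP held 1 CCAAT match, ATM held 1 CCAAT and 1 TTTGAA match, and RAD51C held none of the motifs searched.

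Windows of this kind were found for 36 of the 39 genes and for 10967 of all genes tested. The E2F-type motif was searched as TTCCCGC and its variants TTGGCGC and, with other inner bases, TTCGCGC as well as TTGCCGC, letters typical of sites for E2F, the factor family of S phase genes. It occurred in 11 of 36 repair gene windows (30.6%) and in 17.4% of all windows, on either strand. CCAAT, the box read by NF-Y, occurred in 17 of 36 (47.2%) and in 35.1% of all. TTTGAA, the core of the cell cycle homology region, occurred in 3 of 36 (8.33%) and in 8.14% of all. In the repair gene windows no match of one motif overlapped a match of another, and in 1 window E2F-type matches overlapped each other. A match describes the letters and is not a bound site.

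Levels differed far more between the repair genes than between the groups. Means over all 6 libraries were divided by the length of the canonical transcript, which gives only a rough scale between genes. Per kilobase, FANCI stood highest with 1534 normalized counts, followed by FANCG with 1385, CHEK2 with 762, RAD54L with 702 and RMI2 with 696. The median gene was ATM with 292, and the lowest were ATRIP with 49.6, RAD51D with 34.2, RAD50 with 8.31 and FANCF with 7.69. The place of RAD51D rests on a canonical length of 9966 bases. Those of RAD50 and ATRIP are uncertain because 76.9% and 26.7% of their exon bases are shared with other genes. RAD51D, RMI2 and FANCF are named here after their levels were seen. Expression was well covered: 37 of the 39 genes had at least 100 reads in every library. Over single libraries the reads ran from 17 for FANCF to 9490 for FANCI.

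**Figure D2:**
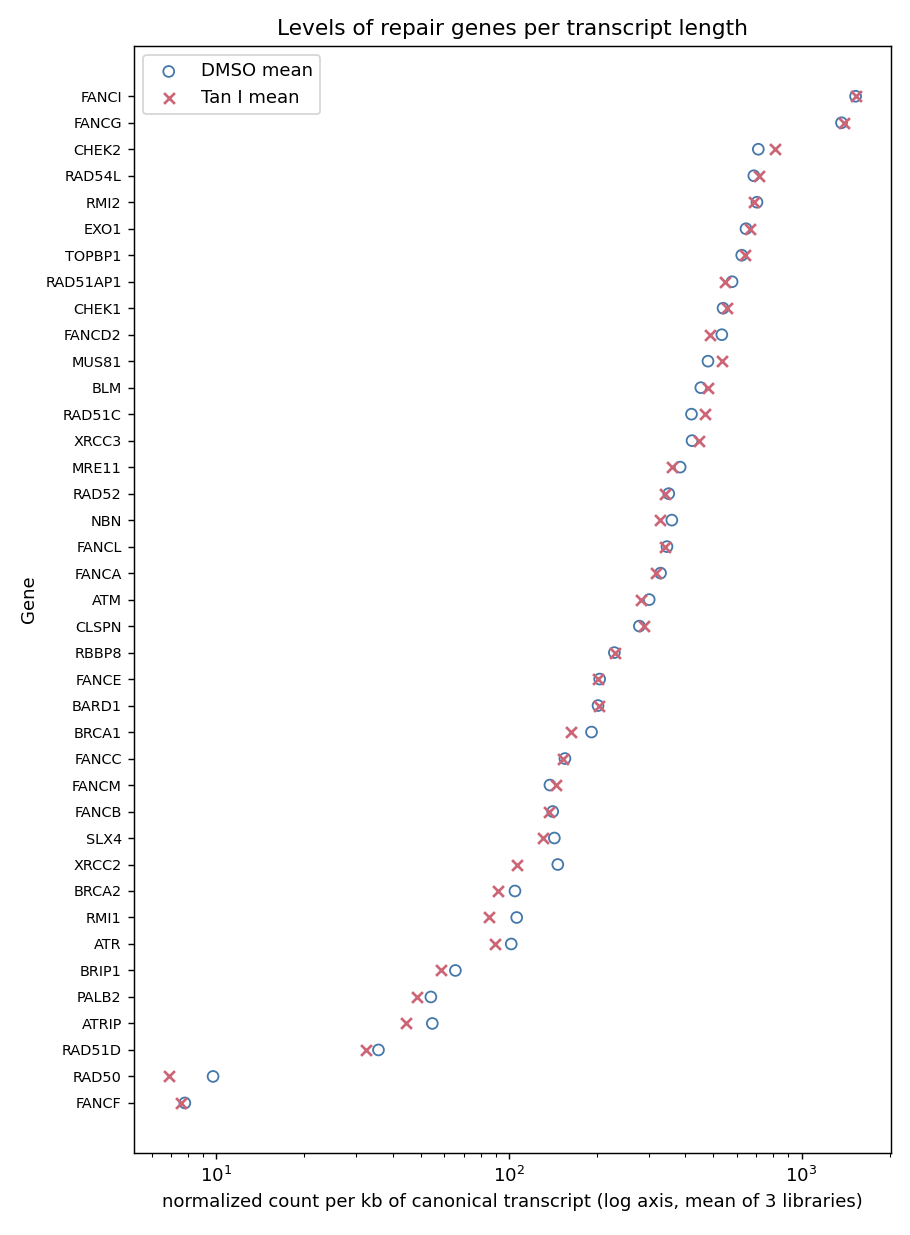
Mean normalized count per kilobase of canonical transcript (horizontal log axis) for each of the 39 repair genes, with circles for DMSO and crosses for Tan I (3 libraries each). Group means run from 6.87 for RAD50 in Tan I to 1537 for FANCI in Tan I, and the circle and cross of a gene mostly lie on each other.

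Of the 8 genes that sense and resect broken ends or unwind the products, 3 were higher and 5 lower in Tan I, and the median log2 fold change was -0.06. MRE11, the nuclease of the MRN complex, had the highest mean, with 2758, 2589 and 2549 normalized counts in DMSO and 2615, 2452 and 2347 in Tan I. Its groups overlapped, and its log2 fold change was -0.09 (SE 0.10, 95% interval -0.34 to 0.15). RAD50, the ATPase that bridges the ends within the same complex, was far lower.

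RAD50 had 118.4, 56.8 and 66.4 normalized counts in DMSO and 96.8, 48.5 and 25.3 in Tan I. Replicate 1 was the highest of both groups and Tan I replicate 3 the lowest, and the groups overlapped. Its log2 fold change was -0.62 (SE 0.50, 95% interval -1.80 to 0.55, unadjusted limma p = 0.253, exact permutation p = 0.4). As annotated, 76.9% of its exon bases are also exon of another gene on the same strand, ENSG00000283782, so both its level and its difference are uncertain. Leaving out 1 library moved the log2 fold change between -1.10 (without Tan I replicate 1) and -0.16 (without Tan I replicate 3).

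RMI1, which works with the helicase BLM to dissolve joined molecules, had 322.6, 428.6 and 300.8 normalized counts in DMSO and 266.8, 278.2 and 304.1 in Tan I. Tan I replicate 3 lay just above DMSO replicate 3, and the other Tan I libraries lay below all DMSO libraries. The difference was -0.29 on the log2 scale (SE 0.17, 95% interval -0.69 to 0.11, unadjusted limma p = 0.129, exact permutation p = 0.2). NBN, RBBP8, EXO1, BLM and RMI2 overlapped between the groups and differed by less than 0.25 on the log2 scale. RMI2, the small partner of RMI1, nevertheless spanned 778 to 1426 normalized counts in DMSO and 675 to 1343 in Tan I.

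Among the 4 mediators BRCA1, BARD1, PALB2 and BRCA2, 1 was higher and 3 were lower, with a median of -0.18. BRCA1, the ubiquitin ligase subunit that promotes resection, had 1426, 1438 and 1208 normalized counts in DMSO and 1361, 1051 and 1052 in Tan I. Tan I replicates 2 and 3 lay below all DMSO libraries, and Tan I replicate 1 lay among them. Its log2 fold change was -0.24 (SE 0.15, 95% interval -0.58 to 0.10, unadjusted limma p = 0.144, exact permutation p = 0.2). BARD1, the partner of BRCA1, PALB2, which links BRCA1 to BRCA2, and BRCA2, the mediator that acts on resected DNA, overlapped between the groups.

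The 7 factors of strand exchange held both the largest lower value and 2 of the 5 largest higher values, and none was called. XRCC2, which takes part in strand exchange, had 912.9, 511.4 and 677.4 normalized counts in DMSO and 943.2, 410.0 and 170.7 in Tan I. Tan I replicate 1 was the highest of all 6 libraries and Tan I replicate 3 the lowest, 5.53-fold apart within a single group. The log2 fold change was -0.75 (SE 0.56, 95% interval -2.07 to 0.56, unadjusted limma p = 0.221, exact permutation p = 0.5), and it ran from -1.36 without Tan I replicate 1 to -0.13 without Tan I replicate 3. The reads behind these values were 979, 531 and 867 in DMSO and 965, 389 and 128 in Tan I.

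RAD51C, which acts at the same step, had 908, 1356 and 968 normalized counts in DMSO and 974, 1177 and 1444 in Tan I. DMSO replicate 2 and Tan I replicate 3 stood highest, in the libraries where XRCC2 stood lowest within each group, and the groups overlapped. The log2 fold change was 0.16 (SE 0.20, 95% interval -0.32 to 0.64). It was 0.33 without DMSO replicate 2 and 0.01 without Tan I replicate 3.

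RAD54L, a motor protein of strand invasion, had the highest mean of the strand exchange factors, with 2317, 1769 and 2258 normalized counts in DMSO and 2480, 2243 and 1904 in Tan I. DMSO replicate 2 was its lowest library and the groups overlapped, with a log2 fold change of 0.06 (SE 0.16). XRCC3, which pairs with RAD51C, had 1082, 1096 and 1075 in DMSO and 1023, 1259 and 1167 in Tan I. Its DMSO libraries were nearly equal, Tan I replicate 1 lay below them and the other Tan I libraries above, and the log2 fold change was 0.08 (SE 0.12). On the opposite strand, KLC1 covers 76.7% of the exon bases annotated for XRCC3. No strand setting is given in the sources used here, so whether reads in the shared bases were told apart is not known. RAD51D, RAD52 and RAD51AP1, further factors of strand exchange, differed by less than 0.25 on the log2 scale and overlapped between the groups.

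The Fanconi core complex, the ubiquitin ligase of the pathway, had the smallest estimated differences of the 6 roles, though not all were precise. Of its 8 genes 2 were higher and 6 lower, with log2 fold changes from -0.04 to 0.08 and a median of -0.01. FANCG, an adaptor subunit with the highest mean, had 3594, 3218 and 3691 normalized counts in DMSO and 3668, 3709 and 3365 in Tan I. Both groups covered much the same range, and the log2 fold change was 0.03 (SE 0.11). FANCM, the translocase that anchors the complex on DNA, had 1165, 810 and 978 in DMSO and 1153, 1051 and 900 in Tan I. Its lowest and its highest library were both DMSO libraries, and the log2 fold change was 0.08 (SE 0.17). FANCE stayed between 498 and 553 normalized counts over all 6 libraries and FANCC between 660 and 754. FANCB, a scaffold subunit, ranged from 252 in DMSO replicate 2 to 576 in DMSO replicate 1.

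FANCI, a subunit of the ID2 complex, had the highest level of all 39 genes. Its normalized counts were 8234, 6081 and 7415 in DMSO and 8852, 6682 and 6289 in Tan I. Replicate 1 was the highest of each group, the groups overlapped, and the log2 fold change was 0.00 (SE 0.18). FANCD2, its partner in the complex, had 2483 to 2841 in DMSO and 2383 to 2680 in Tan I. MUS81, the nuclease that cuts stalled forks and joined molecules, had 1101, 1158 and 1137 in DMSO and 1099, 1342 and 1358 in Tan I. Tan I replicates 2 and 3 lay above all DMSO libraries and Tan I replicate 1 below them, and the log2 fold change was 0.15 (SE 0.12). BRIP1, a helicase bound to BRCA1, and SLX4, the scaffold of nucleases, overlapped between the groups.

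Of the 7 checkpoint genes 4 were higher and 3 lower in Tan I, with a median of 0.03. ATM, the kinase activated by double-strand breaks, had the highest mean among them, with 4927, 2826 and 3929 normalized counts in DMSO and 5054, 3380 and 2506 in Tan I. Replicate 1 was the highest library of each group, and DMSO replicate 2 and Tan I replicate 3 were the lowest of theirs. The log2 fold change was -0.12 (SE 0.29, 95% interval -0.80 to 0.56), and its sign changed when single libraries were left out, from -0.38 to 0.12 (without Tan I replicates 1 and 3).

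CHEK2, the kinase that ATM activates, showed the largest higher value, with 1245, 1369 and 1324 normalized counts in DMSO and 1317, 1516 and 1659 in Tan I. Tan I replicates 2 and 3 lay above all DMSO libraries and Tan I replicate 1 among them, and the mean went from 1312 ± 62.7 to 1497 ± 172 (SD, n = 3 each). The difference was 0.18 on the log2 scale (SE 0.12, 95% interval -0.11 to 0.47, unadjusted limma p = 0.179, exact permutation p = 0.3). ATR, the kinase of stalled forks, had 770 to 911 in DMSO and 617 to 864 in Tan I. CHEK1, the kinase below ATR, TOPBP1, its activator, and CLSPN, the adaptor between ATR and CHEK1, overlapped between the groups as well.

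**Figure D3:**
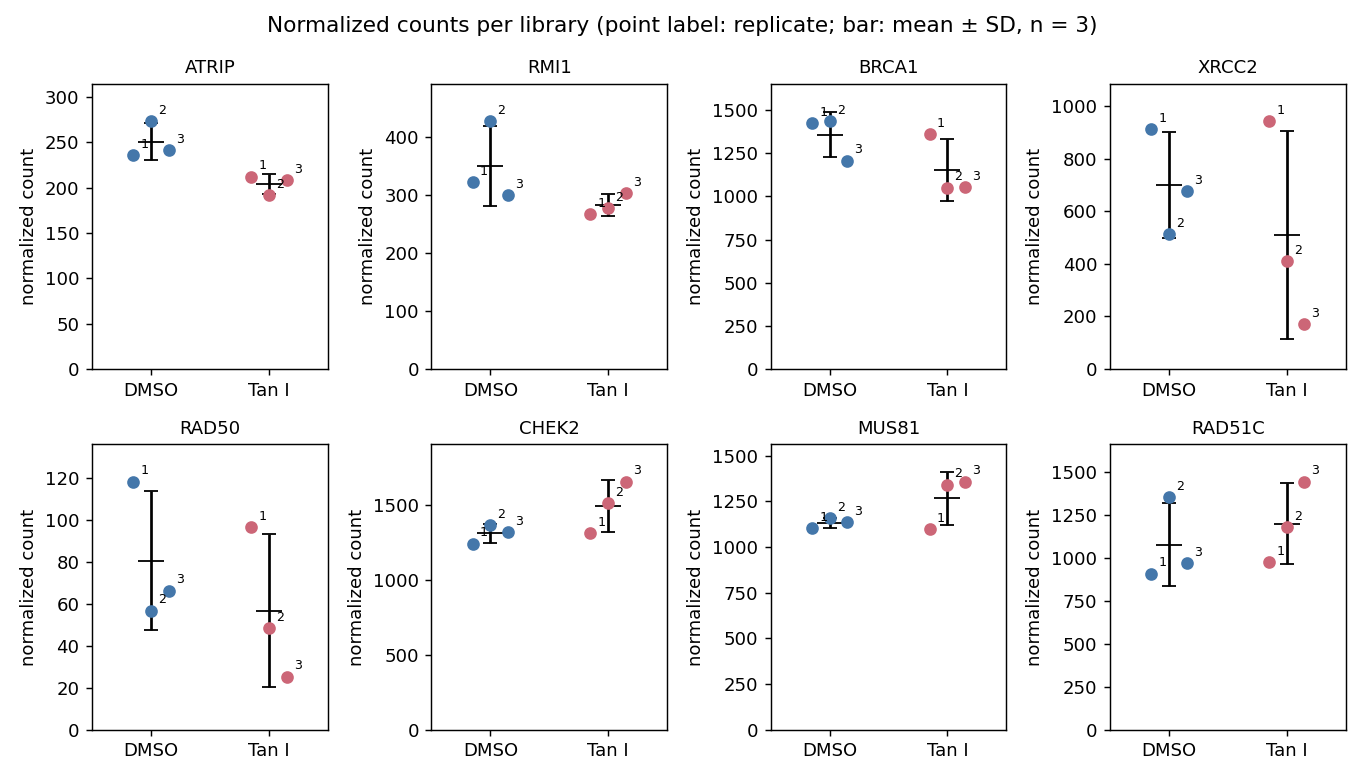
Normalized counts of 8 repair genes in each library, with points labelled by replicate and bars for the mean ± SD (n = 3 per group). Only for ATRIP do the 3 Tan I points lie below the 3 DMSO points, and XRCC2 and RAD50 spread widest within Tan I.

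The libraries of a group differed from each other along one pattern that took in most of the repair genes. The total reads on listed genes were 25356503 to 31679138 in DMSO and 21502760 to 24298627 in Tan I, and no library was a copy of another. Along the axis of largest variance (first principal component, 70.8%), DMSO replicate 3 (-26.7) and Tan I replicate 2 (8.65) stood in the middle. DMSO replicate 2 (41.1) and Tan I replicate 3 (71.6) stood apart from replicate 1 of both groups (-48.0 and -46.8). Those differences were therefore followed within the groups: DMSO replicate 2 minus the mean of DMSO replicates 1 and 3, and Tan I replicate 3 minus Tan I replicate 1. These libraries were singled out after their values were seen.

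In both differences 20 repair genes were lower (51.3%, against 39.2% of all genes) and 13 were higher (33.3%, against 42.5%), and 6 went opposite ways. Across the 39 genes the differences had a Pearson r of 0.78 and a Spearman rho of 0.82, close to 0.77 and 0.76 over 16825 genes with an annotated length. The points share their libraries and hence their depths, and genes are not independent replicates. The genes lower in both were XRCC2 (log2 differences of -0.62 in DMSO and -2.46 in Tan I), RAD50 (-0.63 and -1.89), SLX4 (-0.77 and -1.03), ATM (-0.64 and -1.01) and FANCB (-1.01 and -0.80) at the far end. At the other end stood RMI2 (0.84 and 0.99), RAD51C (0.53 and 0.57) and PALB2 (0.66 and 0.48). These genes were picked for their values.

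Transcript length moved with this pattern. Across the 39 genes, the Spearman correlation with the length of the canonical transcript was -0.39 for the difference in DMSO and -0.64 for that in Tan I, against -0.15 and -0.28 over all genes. With GC content it was 0.08 and 0.35, against 0.07 and 0.15. The median transcript of the 39 genes is 4592 bases long (2588 over all genes), that of the 20 genes lower in both differences 5465 and that of the 13 higher in both 2576. After each library was corrected for length and GC content, 0 repair genes were called without adjustment (background 2.76%) and 6 had groups that did not overlap (background 9.18%). The part of length in the single values was not tested further. With DMSO replicate 2 and Tan I replicate 3 both left out, 0 repair genes were called without adjustment (background 2.82%) and 8 had groups that did not overlap, against 30.3% of all genes.

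**Figure D4:**
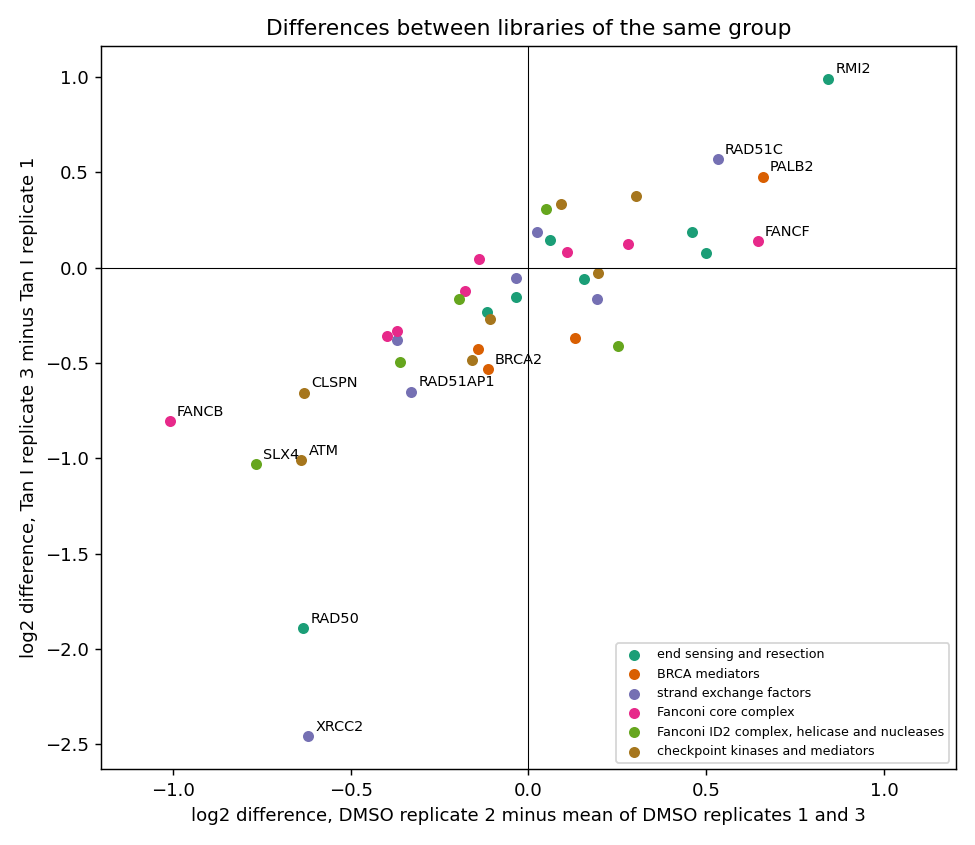
For each repair gene, the log2 difference between DMSO replicate 2 and the mean of DMSO replicates 1 and 3 (horizontal axis) against that between Tan I replicate 3 and Tan I replicate 1 (vertical axis), coloured by role. The 39 points run from XRCC2 and RAD50 at the lower left to RMI2 at the upper right (Pearson r 0.78, a description with no test).

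**Figure D5:**
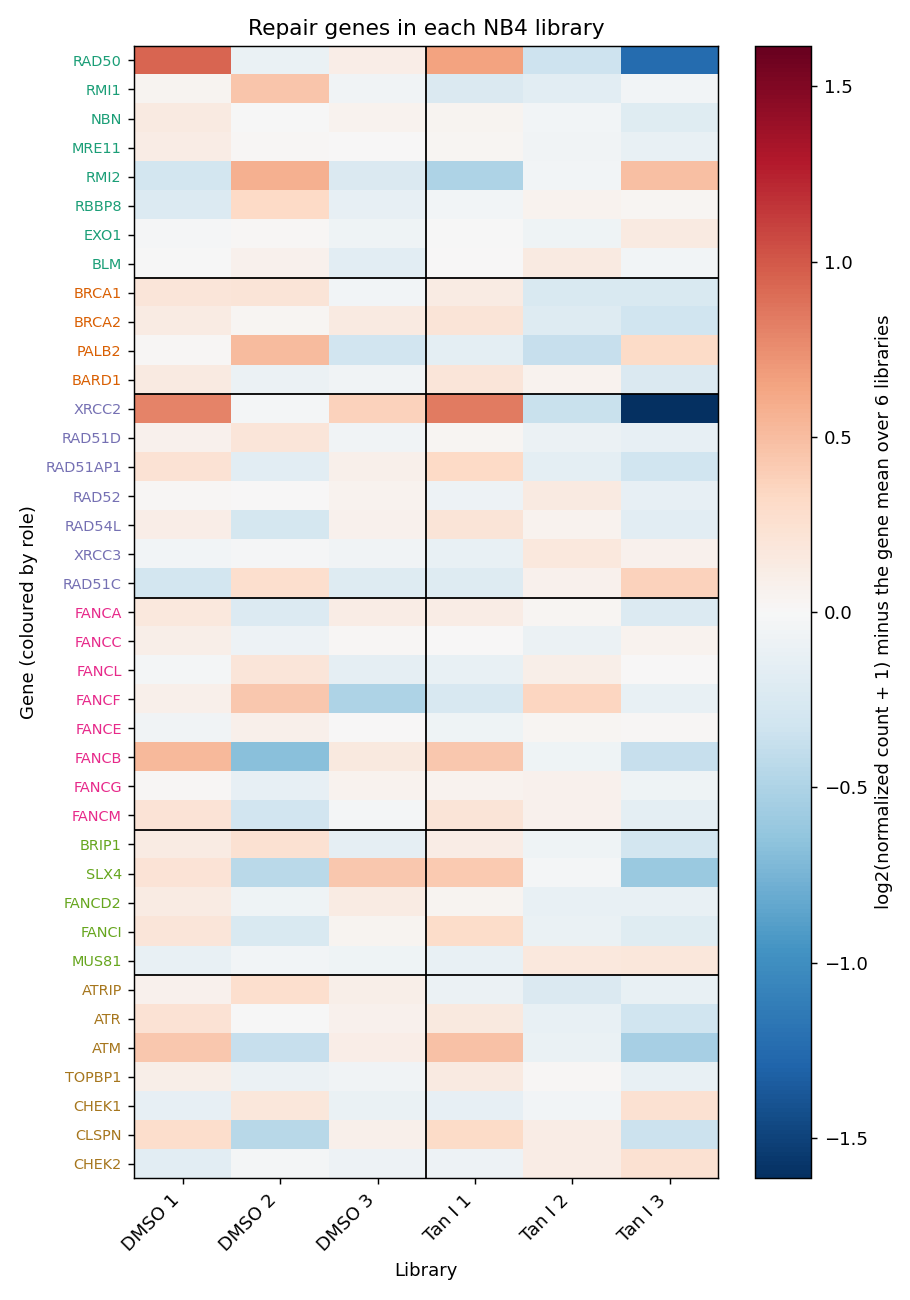
Heat map of log2(normalized count + 1) minus the mean of the gene over the 6 libraries (columns), for the 39 repair genes (rows, coloured by role). Low values in DMSO replicate 2 and Tan I replicate 3 share 20 of the rows when set against the other DMSO libraries and Tan I replicate 1, and no block of rows separates the 3 DMSO columns from the 3 Tan I columns.

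The other genes of these pathways were read from lists written from general knowledge. Of 82 such genes 80 were tested, and 0 were called without adjustment (2.42% of all genes), with 40 higher and 40 lower and a median log2 fold change of 0.00. By list, 15 of 27 further homologous recombination factors were higher (median 0.02), 6 of 17 further Fanconi and crosslink factors (median -0.05), 11 of 22 further checkpoint and break signalling factors (median -0.01) and 8 of 14 end joining factors (median 0.10). Groups did not overlap for 2 of the 80 (7.89% of all genes).

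Many of these repair genes are expressed chiefly in dividing cells, so S phase and proliferation genes were set beside them. Of 20 such genes 16 were higher in Tan I (80.0%, against 49.7% of all genes tested), with a median log2 fold change of only 0.07. Without adjustment 2 were called (2.42% of all genes), and none with it. Groups did not overlap for 5 of the 20 (7.89% of all genes), 4 of them higher (CCNA2, CCNB1, CDK1 and RRM2) and 1, the helicase subunit MCM2, lower. CCNB1, the mitotic cyclin, rose to 5216 ± 482 normalized counts from 3994 ± 326 with DMSO (SD over 3 libraries each), by 0.38 on the log2 scale (unadjusted limma p = 0.0154, exact permutation p = 0.1). RRM2, the small subunit of ribonucleotide reductase, rose from 3910 ± 338 to 5422 ± 1263, with a log2 fold change of 0.45 (unadjusted limma p = 0.0353, exact permutation p = 0.1). The part of proliferation in the repair gene values was not tested.

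Of 9 promyelocyte genes listed 8 were read, and ELANE was not analysed here. MPO, the granule peroxidase, had 33279 to 64107 normalized counts over the 6 libraries, and the surface receptor CD33 had 3473 to 4119. Of the 8 genes 3 were higher (CD33, RARA and PML) and 5 lower in Tan I, with a median of -0.18. The paper describes NB4 as positive for PML-RARa, and counts per gene do not separate that fusion from PML and RARA. MPO and CTSG were called lower without adjustment (1.10% of all genes), and groups did not overlap for 3 of the 8 (37.5%, against 7.89%), namely these and PML, which was higher. The summed level was 73785 to 80079 in DMSO and 44851 to 53448 in Tan I, of which MPO alone made up 60389 to 64107 and 33279 to 39450. Of 16 markers of other cell types 8 are read here, none was called, and their summed level was 904 to 1157 in DMSO and 876 to 1298 in Tan I. No marker among the 8 was at 0, and the lowest value was 8.60, for ALB. CCNA2, CDK1, MCM2, RARA and PML are named here after their values were seen. The part of these markers in the repair gene values was not tested.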

How the data were processed

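RNA-seq of NB4 cells was used, with 3 DMSO and 3 Tan I libraries. According to the methods, the authors aligned reads with STAR to GRCh38, dropped multi-mapping reads, summed the rest by gene (featureCounts) and ran DESeq2. Versions, annotation release and strand setting are not given in the sources used here. The deposited signal values are read counts that the authors divided by one size factor per library (normalized counts), and 0 other per-sample columns were present. The table also holds the authors' own comparison (mean, log2 fold change with its standard error, Wald statistic, p-values), which was not used. Columns named con were taken as the DMSO group.

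All values (100%) were whole multiples of the value of 1 read, which gave back the reads and size factors of 0.750 to 1.28. Precision rests on 21502760 to 31679138 reads per library on listed genes.

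Differences were tested in R 4.3.3 with limma 3.58.1 (lmFit, eBayes with trend, treatment as the only term) on log2(normalized count + 1), for genes with a mean of at least 10, with Benjamini-Hochberg adjustment over all 16887 genes tested. On this scale changes of low genes are understated. Single genes also had an exact two-sided permutation test. Fits were also run on simulated reads, drawn separately for each gene. Those reads lack the pattern that genes share within libraries, so they cannot show how the fits behave with it. Alternatives were pseudocounts of 0.1 and 10, no filter, a mean of at least 50, quantile normalization, equal totals, no variance trend, edgeR 4.0.16 and DESeq2 1.42.0 on recovered reads, a replicate block, the first principal component as covariate, no fold threshold and each library left out. Leaving out DMSO replicate 2 with Tan I replicate 3, and a correction for length and GC content (splines with 5 degrees of freedom, 16825 genes), were added after seeing the data.

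Whether the libraries were paired is not given in the labels, and the main fit used no pairing. Same-numbered deviations correlated at 0.75, -0.09 and -0.45 for replicates 1, 2 and 3. The genes, lists and tests were chosen with earlier results of these data known. Per-library values are given for genes called without adjustment, with separate groups, among the 5 largest higher or lower values, or with the highest mean of their role, and other genes by range. Gene positions, lengths and overlaps come from GENCODE release 44, and start sites and sequences from RefSeq. NBN, FANCI and RMI2 had no window.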

Additional observations from a re-analysis of the deposited data

How the results depend on the processing

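No repair gene was called with adjustment under any alternative run, and the median log2 fold change of the 39 genes stayed between -0.09 and 0.01. Without adjustment the count of 0 became 2 with equal totals (RMI1 and ATRIP, background 2.59%), 3 with the first principal component as covariate (RMI1, XRCC2 and ATRIP, background 8.86%) and 0 to 4 when single libraries were left out. The count of genes with separate groups, 1, became 2 with quantile normalization (7.53% of all genes), 4 with equal totals (8.30%), 6 with the length and GC correction (9.18%), 8 with DMSO replicate 2 and Tan I replicate 3 both left out (30.3%), and 1 to 13 without single libraries (11.0% to 26.5%). The count over the 80 genes of the 4 other repair lists, 0, became 1 with equal totals (2.59% of all genes), 1 without the variance trend (3.29%), 4 with the first principal component as covariate (8.86%) and 0 to 8 without single libraries (0.947% to 8.86%). The cause of these shifts was not tested.

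Of 285 alternative values for the 15 genes with a printed fold change, 269 kept their direction, 16 reversed and 0 passed the adjusted threshold (lowest adjusted p 0.143, RMI1 with the first principal component as covariate, in limma). With quantile normalization FANCG went to -0.0173 and FANCI to -0.0771, and with equal totals to -0.0259 and -0.0587. ATM went to 0.0723 with the first principal component and 0.00738 with the length and GC correction, and FANCI to -0.0230 with both libraries left out. Leaving out single libraries gave -0.38 to 0.12 for ATM, -0.0259 to 0.0778 for FANCG, -0.149 to 0.0989 for FANCI, -0.0522 to 0.209 for FANCM and -0.0588 to 0.167 for RAD54L. Equal totals moved the median of all genes to -0.06.

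With the replicate number as a block, 0 repair genes were called (348 genes in all, 2.06%), the median was -0.02, and no call changed. The labels do not say whether libraries were paired, and only replicate 1 correlated best with its own number. On the first principal component Tan I replicate 3 (71.6) lay nearest to DMSO replicate 2 (41.1). A pairing across different numbers was not tested. For DESeq2, 1 repair gene had no adjusted p. Low depth limits FANCF and RAD50, the genes with under 100 reads in some libraries.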

Other observations

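Of 19 p53 response genes tested, which the kinases ATM and CHEK2 act upon through p53, 10 were higher and 9 lower in Tan I (median 0.02 on the log2 scale). Groups did not overlap for 3 of the 19 (15.8%, against 7.89% of all genes), BTG2 and PLK3 being higher and FAS lower, and 1 was called without adjustment (2.42% of all genes). This was BTG2, an antiproliferative target of p53, which was not called with adjustment. PLK3 and FAS are named after their values were seen. BTG2 rose to 198 ± 31.5 normalized counts from 139 ± 11.1 with DMSO (SD over 3 libraries each, log2 fold change 0.49, unadjusted limma p = 0.0276, exact permutation p = 0.1).

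Among the granule genes of promyelocytes, MPO fell from 62588 ± 1950 to 36602 ± 3112 normalized counts (log2 fold change -0.78, unadjusted limma p = 0.000988, exact permutation p = 0.1). CTSG, the granule protease cathepsin G, fell from 1909 ± 438 to 1199 ± 333 (log2 fold change -0.69, unadjusted limma p = 0.0262, exact permutation p = 0.1). The adjusted p was 0.999 for both.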
